A study of Mus musculus with 6 samples.

Results

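The genes of the actomyosin and contractile cytoskeleton are 39 genes chosen by name from the 55367 gene symbols of the deposited count table. They encode actins, calponins, tropomyosins, myosin chains and their kinase, actin crosslinkers, focal adhesion and LIM domain proteins, the transcription factor SRF and the protein kinases ROCK1 and ROCK2. All 39 were in the table and all 39 passed the filter on low counts, which kept 15055 genes for testing. The choice used no measured value of these libraries, but it was made with earlier results on them known.

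Contractile force in fibroblasts comes from bipolar filaments of myosin that pull on bundled actin filaments, the stress fibres. Myosin light chain kinase switches the motor on by phosphorylating its regulatory light chain, tropomyosins and calponins tune its access to actin, and alpha-actinins and filamins hold the filaments together. Talin, vinculin and zyxin tie the fibre ends to integrins at focal adhesions. Many of these genes carry a CArG box, the DNA element bound by SRF, whose coactivators MRTF-A and MRTF-B leave the cytoplasm when free actin monomers run low. Lymph node fibroblastic reticular cells (FRCs), which wrap the conduit network of the node, are known for this contractile machinery: it sets the tension of the node, and its relaxation lets the node swell.

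Polyadenylated RNA was sequenced from a mouse FRC line after 96 h of culture in conditioned medium. In the first group the FRCs received medium of 4T1 cells, a metastatic mouse mammary carcinoma line. In the second they received medium of 67NR cells, a non-metastatic line derived from the same mammary tumour as 4T1. In the control group they received medium of the FRC line itself. All media were conditioned for 24 h in plain RPMI, supplemented with 2% serum and antibiotics and replaced every 48 h, and each group had 2 libraries. No group had unconditioned medium, so factors released by tumour cells, FRC factors that tumour medium lacks and nutrients used up during conditioning cannot be told apart. The labels do not say how the FRC line was derived or whether the libraries of a group came from separate cultures, so each p-value reflects no more than the spread among these samples, which may be technical.

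Total counts, in units of 1e6, were 14.5 and 18.2 in 4T1 medium, 21.8 and 20.9 in 67NR medium and 19.3 and 13.6 in control medium, and 1 count stood for 0.0463 to 0.0743 counts per 1e6 (CPM). Across genes, the lowest correlation within a medium was 0.992 and the highest between media was 0.979. The 2 libraries of a medium differed by more than counting noise, with a chi-square per degree of freedom of 8.2 in 4T1, 4.23 in 67NR and 4.19 in control medium. Of 12 markers of FRCs and lymph node stroma, Thy1, Ccl19, Ccl21a and Cxcl13 had no count in any library, whereas Pdpn, which encodes podoplanin, lay between 97.0 and 129.8 CPM and Cxcl12 was the highest of the list. The label of FRCs thus goes with podoplanin and Cxcl12 in these counts, while the T and B zone chemokines Ccl19, Ccl21a and Cxcl13 were not counted and Icam1 lay under 1 CPM in every library. Markers on that list, Pdpn among them, differed between the media. Against control medium Pdpn fell in both tumour media (log2 fold change -0.24 in 4T1, -0.27 in 67NR), and Pdgfra rose in both (1.92 in 4T1, 0.87 in 67NR). Vcam1 and Ltbr rose in 4T1 (1.61 and 0.46), and Pdgfrb fell in 4T1 (-0.77) and rose in 67NR medium (0.45). Of 12 smooth muscle and pericyte markers, 9 lay under 1 CPM in every library, among them Myocd, the smooth muscle coactivator of SRF, with counts in 1 control library alone.

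Divided by exon length, the levels of the 39 genes differed widely. In all, 12 genes exceeded 100 CPM per kb of exon in control medium, 17 lay between 10 and 100, and 10 lay under 10, of which 8 were under 3. Acta2, which encodes smooth muscle alpha-actin, came first in all 3 media, with means of 1208 CPM per kb in 4T1, 1636 in 67NR and 1612 in control medium. Tpm4 and Flna followed in that order in every medium. The 8 genes under 3 CPM per kb in control medium were Mylk, Cnn1, Myl12b, Actg2, Tagln, Lmod1, Des and Myh11. The levels of Tagln and Myl12b are uncertain, since other gene models overlap their exons. Several of the 8 genes are known from smooth muscle, but other genes known from it lay higher, with Smtn at 31.2, Myl9 at 41.0 and Csrp2 at 90.4 CPM per kb in control medium. Abundant alpha-actin transcripts stood beside traces of smooth muscle myosin. The order within the list also differed between media. Tpm1 held rank 7 in 4T1, 5 in 67NR and 4 in control medium, and Zyx held rank 4 in 4T1, 11 in 67NR and 6 in control medium.

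**Figure D1:**
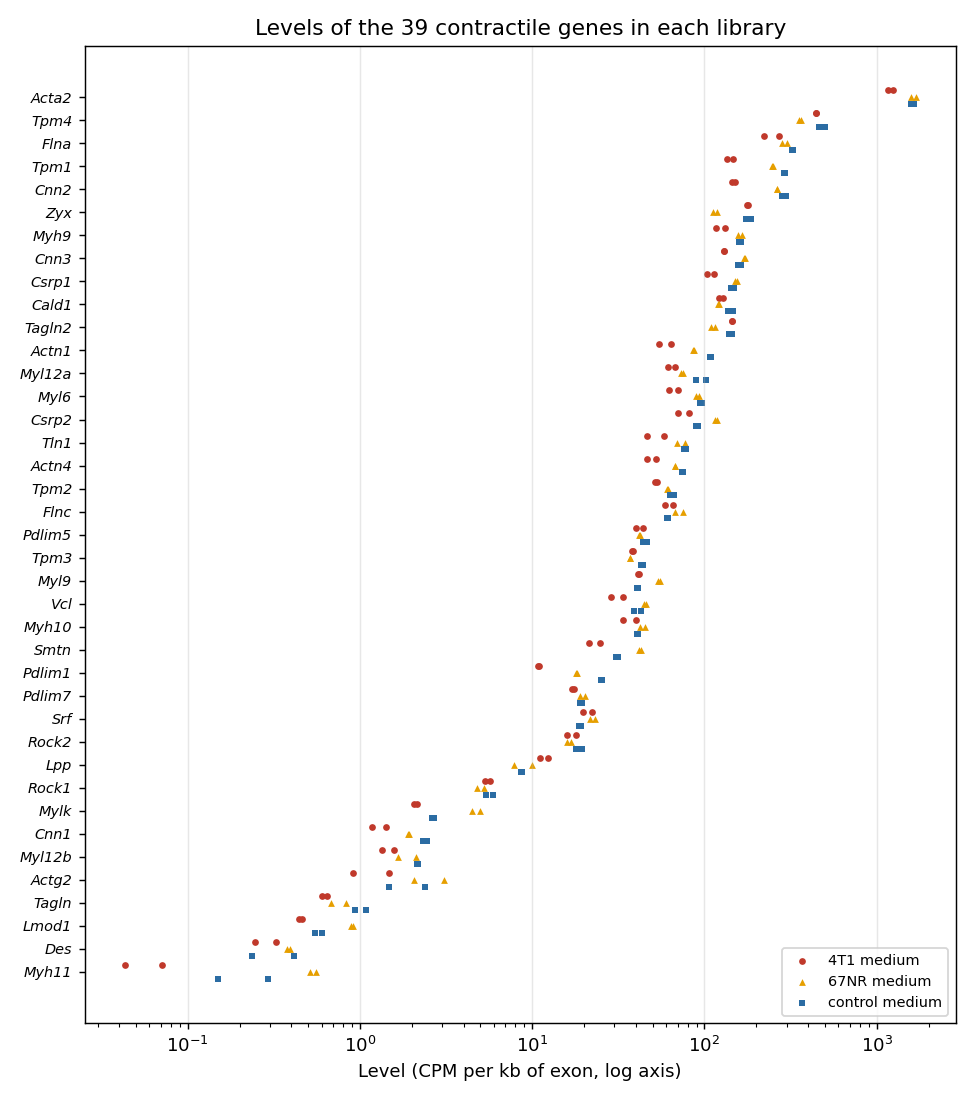
Level of each of the 39 genes in each of the 6 libraries, as CPM per kb of exon on a log axis, ordered by the mean in control medium; each point is 1 library and the colour and symbol give the medium. Acta2 stands apart at the top at 1168 CPM per kb or more in every library, and 8 genes lie under 3 CPM per kb in control medium.

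In 4T1 medium most of the machinery was lower than in control medium. Of the 39 genes, 23 fell and 1 rose (adjusted p under 0.05, edgeR quasi-likelihood test with Benjamini-Hochberg adjustment over 15055 genes), which is 59.0% and 2.56% of the list, against 19.2% of all tested genes lower and 19.9% higher. The gene that rose was Lpp. The median log2 fold change of the 39 was -0.36, against 0.01 over all genes tested, so the typical change was modest, and Tpm1, Myh11 and Pdlim1 were the 3 that fell at least 2-fold, 4.12% being the share of all genes that did. In 29 genes both 4T1 libraries lay below both control libraries and in 2 they lay above, against 32.8% and 34.5% of all genes. Together the 39 genes took 1.68 and 1.75% of all counts in 4T1 medium, 2.00 and 2.02% in 67NR medium and 2.17 and 2.21% in control medium. In bulk RNA, fewer cells of a kind and less RNA per cell cannot be told apart.

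In 67NR medium the list split. In all, 8 genes rose and 9 fell against control medium, 20.5% and 23.1% of the list, with 13% of all tested genes higher and 14.6% lower. The median log2 fold change was -0.07, against 0 over all genes, and Myh11 was the only gene to pass 2-fold, with 2.44% of all genes at least 2-fold higher. Both 67NR libraries lay above both control libraries in 12 genes and below them in 20, against 34% and 33.5% of all genes. Set against each other, 4T1 medium gave lower levels than 67NR medium in 25 genes and higher levels in 4, Tagln2, Tpm4, Zyx and Lpp. These are 64.1% and 10.3% of the list, against 19.9% and 23.5% of all genes, and the median was -0.39, against 0.03 over all genes. Actg2, Mylk and Myh11 were at least 2-fold lower, as were 4.98% of all genes. Both 4T1 libraries lay below both 67NR libraries in 29 genes and above them in 7, against 32.8% and 37.2% of all genes. Both comparisons with control medium use the same control libraries, so their values are given side by side and are not independent.

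**Figure D2:**
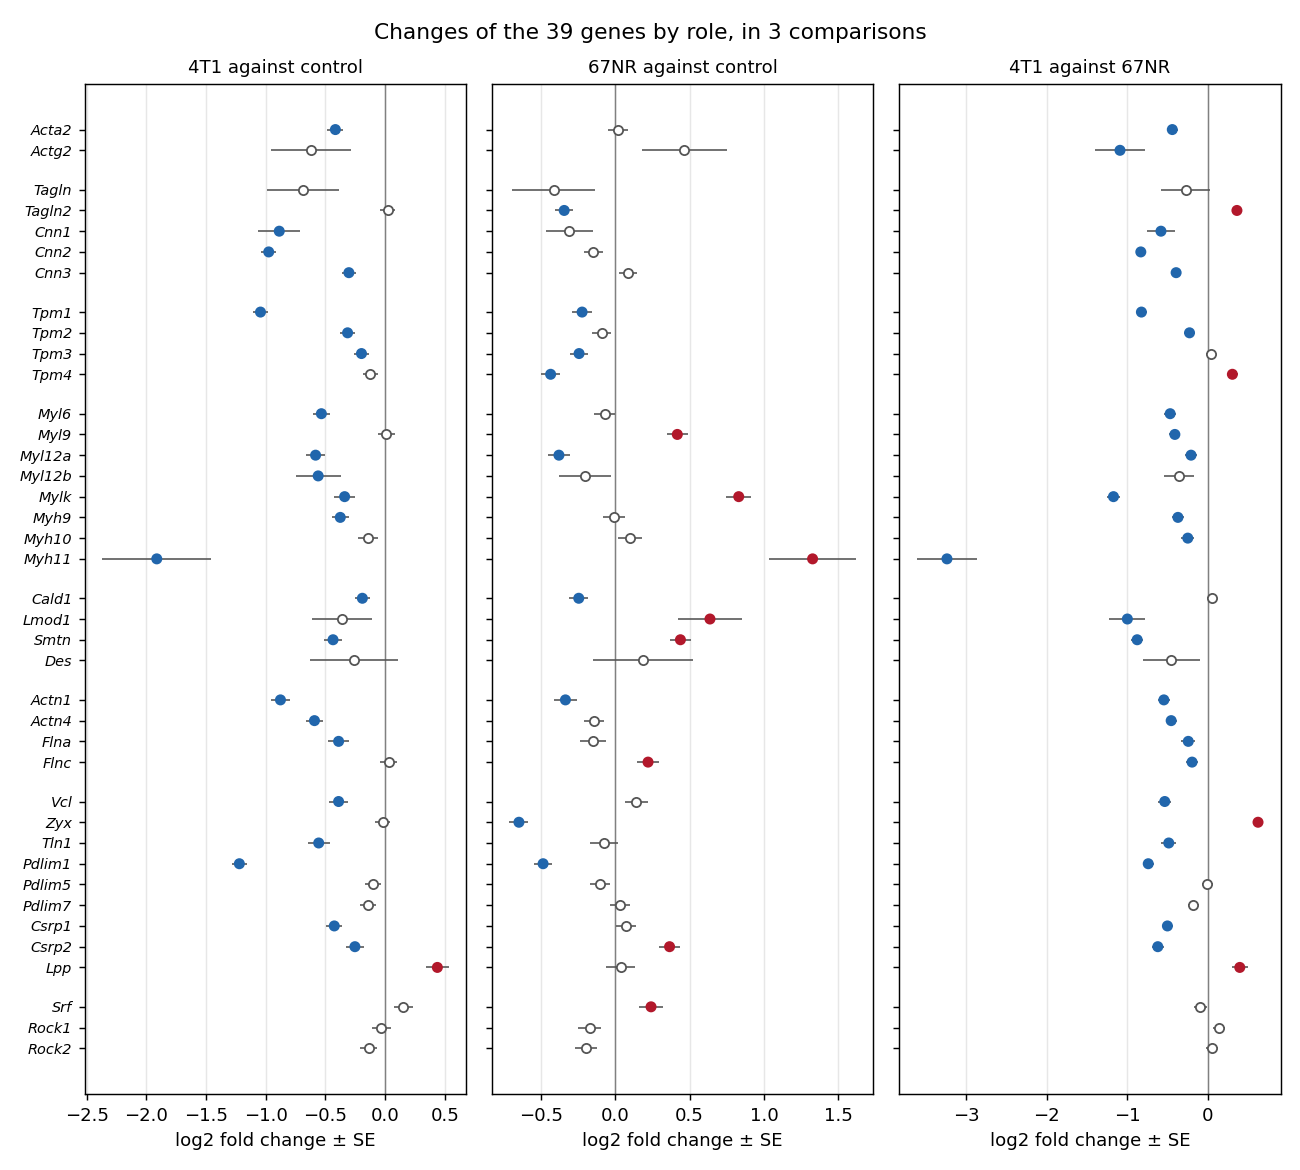
Log2 fold change with its standard error (bars) for each of the 39 genes, grouped by role, in 4T1 against control, 67NR against control and 4T1 against 67NR medium, each panel with its own axis. Filled blue points fell and filled red points rose at an adjusted p under 0.05, and open points did not pass it; 23 genes are blue in the left panel and 25 in the right, whereas the middle panel has 8 red and 9 blue.

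The calls and the order of the means were also counted jointly. No share over all genes was computed for these patterns, so the counts describe the list and show no excess. By call, 4 genes moved in opposite directions, lower in 4T1 medium and higher in 67NR medium than in control medium: Mylk, Myh11, Smtn and Csrp2. Myl9, Lmod1, Flnc and Srf rose in 67NR medium without passing the test in 4T1 medium. Another 6 fell in both, Tpm1, Tpm3, Myl12a, Cald1, Actn1 and Pdlim1, and 13 fell in 4T1 medium alone, where alone means past the threshold in that comparison and not in the other. Tagln2, Tpm4 and Zyx fell in 67NR medium without passing in 4T1 medium. The other 8 genes passed in neither, Actg2, Tagln, Myh10, Des, Pdlim5, Pdlim7, Rock1 and Rock2. By order of the means, 15 genes were lowest in 4T1 and highest in control medium, 13 had 67NR medium at the top and 4T1 at the bottom, and 7 had 67NR medium at the bottom, of which 6 had control medium at the top and Tagln2 had 4T1 medium at the top.

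RNA quality measures and markers of other cells also differed between the media. Mitochondrial transcripts made up 2.11 and 2.37% of the reads counted in 4T1, 1.96 and 2.28% in 67NR and 1.32 and 1.87% in control medium. Of 13 tested mitochondrial and nuclear retained transcripts, 8 were higher in 4T1 than in control medium (median log2 fold change 0.70). In 67NR medium 9 were higher than in control medium (median 0.49). These are 61.5% and 69.2% of the transcripts, against 19.9% and 13% of all genes. The summed level of 12 smooth muscle and pericyte markers, nearly all of it Notch3, was 241.7 and 275.0 CPM in 4T1, 261.5 and 269.3 CPM in 67NR and 231.3 and 224.1 CPM in control medium. Notch3 was called higher in both tumour media than in control medium (0.24 in 4T1, adjusted p = 0.0208, and 0.27 in 67NR, adjusted p = 0.0134). The 4T1 call of Notch3 was lost without 4T1 replicate 2 (0.13) or either control replicate (0.25 and 0.21). Its 67NR call was lost without any 1 of the 67NR or control libraries (0.24 to 0.30). Of the other genes of that list, Cspg4 fell in both tumour media against control (-1.60 in 4T1, adjusted p = 8.8e-06, and -0.62 in 67NR, adjusted p = 0.00765). The 67NR call of Cspg4 was lost without 67NR replicate 1 (-0.51) or control replicate 2 (-0.58). Mcam fell in 67NR against control medium (-0.91, adjusted p = 0.00117). In 4T1 against 67NR medium Cspg4 was lower (-0.99, adjusted p = 0.000525) and Mcam higher (0.75, adjusted p = 0.00249). The 13 skeletal and cardiac muscle markers summed to at most 2.83 CPM in any library. The 10 endothelial markers summed to 35.8 and 34.6 CPM in 4T1, 26.7 and 23.8 CPM in 67NR and 14.3 and 16.2 CPM in control medium, almost all of it Emcn, with Cldn5, Erg and Prox1 at 0. Of its 4 tested genes, Emcn rose and the rarer Kdr and Tek fell in 4T1 against control medium. The 11 epithelial markers, with Epcam and Cldn4 at 0, summed to 3.24 and 2.07 CPM in 4T1, 6.76 and 6.57 CPM in 67NR and 9.55 and 8.32 CPM in control medium, lowest in 4T1 and highest in control medium. Of its 3 tested genes, Krt19 (-2.12, adjusted p = 6.98e-06) and Cdh1 (-2.74, adjusted p = 0.00202) fell in 4T1 against control medium. The part of these measures in the changes described here was not tested.

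The promoters of the contractile genes were read for the CArG box, since SRF is itself on the list and its level was measured. RefSeq (GRCm38.p6) gave 41 promoter windows for 34 of the 39 genes; Actg2, Tagln, Myh11, Csrp2 and Rock1 had no entry. In the 250 bases before the start, a consensus box, CC followed by 6 letters that are each A or T and then GG, stood in 5 of these 34 genes (14.7%), Cnn2, Myl6, Myl9, Vcl and Srf, and in 439 of 27025 genes overall (1.62%). Since genes linked to SRF were among those chosen for the list, a higher share than overall is partly built into the choice. The pattern is its own reverse complement, so 1 pass reads both strands. With 1 of the 6 centre letters allowed to be G or C, 9 of 34 genes (26.5%) held a box, Acta2, Tpm3, Myl12a and Flnc being the additions, against 9.78% of all genes. The windows of the 5 consensus genes and of Acta2, the most abundant member, are shown so that the boxes can be seen in place; each line is the 250 bases before the RefSeq start on the gene's strand, with the boxes in capitals. They lie at chr10:79988350-79988599 on the plus strand for Cnn2, chr14:20929148-20929397 on the plus strand for Vcl, chr10:128493010-128493259 on the minus strand for an alternative start of Myl6, chr19:34255374-34255623 on the minus strand for Acta2, chr2:156775214-156775463 on the plus strand for Myl9 and chr17:46556163-46556412 on the minus strand for Srf.
Cnn2: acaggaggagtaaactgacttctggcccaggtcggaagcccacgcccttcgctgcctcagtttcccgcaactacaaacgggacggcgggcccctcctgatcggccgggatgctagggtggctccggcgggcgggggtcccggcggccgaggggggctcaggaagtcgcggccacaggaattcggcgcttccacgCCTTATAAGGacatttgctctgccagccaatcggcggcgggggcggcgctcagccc
Vcl: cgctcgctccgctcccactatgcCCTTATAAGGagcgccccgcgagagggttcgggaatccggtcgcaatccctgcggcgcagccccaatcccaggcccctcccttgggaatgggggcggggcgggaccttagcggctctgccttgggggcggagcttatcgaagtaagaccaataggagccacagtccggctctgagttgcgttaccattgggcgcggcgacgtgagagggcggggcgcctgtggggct
Myl6: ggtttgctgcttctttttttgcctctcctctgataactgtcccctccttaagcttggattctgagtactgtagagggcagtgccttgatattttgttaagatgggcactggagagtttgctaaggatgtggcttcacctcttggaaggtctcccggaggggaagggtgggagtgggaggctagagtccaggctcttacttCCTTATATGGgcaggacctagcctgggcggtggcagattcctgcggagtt
Acta2: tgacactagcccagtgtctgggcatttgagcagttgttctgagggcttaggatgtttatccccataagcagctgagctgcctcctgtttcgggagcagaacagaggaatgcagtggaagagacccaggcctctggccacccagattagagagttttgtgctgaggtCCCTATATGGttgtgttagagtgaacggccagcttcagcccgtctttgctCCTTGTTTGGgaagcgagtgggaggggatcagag
Myl9: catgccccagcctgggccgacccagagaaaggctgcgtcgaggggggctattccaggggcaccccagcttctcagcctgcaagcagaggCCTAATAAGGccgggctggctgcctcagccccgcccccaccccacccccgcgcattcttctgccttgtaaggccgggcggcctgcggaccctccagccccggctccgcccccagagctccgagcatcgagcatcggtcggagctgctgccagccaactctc
Srf: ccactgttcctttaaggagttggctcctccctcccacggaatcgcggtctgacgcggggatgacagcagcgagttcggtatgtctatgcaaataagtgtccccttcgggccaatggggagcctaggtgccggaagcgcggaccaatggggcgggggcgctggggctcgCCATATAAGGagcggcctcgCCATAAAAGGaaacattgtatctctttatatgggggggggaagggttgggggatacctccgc

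Counted back from the start, the consensus boxes began at -56 in Cnn2, -227 in Vcl, -50 in Myl6, -161 in Myl9 and -82 and -62 in Srf, and the boxes of Acta2, each with 1 G or C in the centre, at -84 and -34. The Cnn2 and Vcl boxes have the same 10 letters, CCTTATAAGG, and that of Myl9 is CCTAATAAGG. Of the 6 genes shown, Cnn2, Vcl, Myl6 and Acta2 fell in 4T1 medium, and Myl9 and Srf rose in 67NR medium. A match of letters is a description and does not show that SRF was bound in these cells.

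Among the actins, Acta2 (chromosome 19, 34241090 to 34255590, minus strand, GRCm38), the alpha-actin that marks contractile fibroblasts, fell in 4T1 medium. It had 2739 and 2565 CPM in 4T1, 3710 and 3476 CPM in 67NR and 3472 and 3607 CPM in control medium. Both 4T1 libraries lay below the other 4, while the 67NR and control libraries overlapped. Against control medium the level fell by 25.1% in 4T1 medium (log2 fold change -0.42, SE 0.07, adjusted p = 0.000309), and in 67NR medium the log2 difference was 0.02 (SE 0.07, adjusted p = 0.848). Against 67NR medium it was lower by 0.44 on the log2 scale in 4T1 medium (-0.44, SE 0.07, adjusted p = 0.00016). Actg2, the gamma-actin of visceral smooth muscle, was rare, with 1.42 and 2.29 CPM in 4T1, 4.82 and 3.21 CPM in 67NR and 2.28 and 3.72 CPM in control medium. Its 4T1 and control libraries overlapped, and it passed in 4T1 against 67NR medium only (log2 fold change -1.09, SE 0.31, adjusted p = 0.0117). That call was lost without 4T1 replicate 1 (adjusted p = 0.067) or 67NR replicate 1 (adjusted p = 0.132). Neither cytoplasmic actin is a member, but both give a measure of total actin. Actb, which encodes beta-actin, averaged 2468 ± 1.21 CPM in 4T1, 2686 ± 11.5 CPM in 67NR and 2794 ± 11.5 CPM in control medium (SD, n = 2 each), a log2 fold change of -0.18 in 4T1 against control medium (adjusted p = 0.0327) and -0.06 in 67NR against control medium (adjusted p = 0.527). The 4T1 call of Actb was lost without any 1 of the 67NR or control libraries (adjusted p between 0.0845 and 0.113) and with library totals alone (0.0711).

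The calponins, which bind actin and damp myosin, were lower in 4T1 medium across all 3 paralogs. Cnn2, the calponin of non-muscle cells, had 371.8 and 356.0 CPM in 4T1, 644.9 and 648.5 CPM in 67NR and 696.2 and 734.4 CPM in control medium. The 3 media did not overlap, and the gap was widest between the 4T1 libraries and the rest. Cnn2 fell by 49.1% in 4T1 against control medium (log2 fold change -0.98, SE 0.06, adjusted p = 7.32e-08), and in 67NR medium its log2 difference was -0.15 (adjusted p = 0.105). Without 4T1 replicate 1 or 4T1 replicate 2 that 67NR value passed, at adjusted p = 0.0293 and 0.0294. Cnn1, the smooth muscle calponin, had 3.85 and 3.21 CPM in 4T1, 5.24 and 5.26 CPM in 67NR and 6.33 and 6.69 CPM in control medium. It too fell in 4T1 medium without overlap (log2 fold change -0.89, SE 0.18, adjusted p = 0.00143), at a far lower level per kb than Cnn2. Cnn3, the acidic calponin, had 394.2 and 394.5 CPM in 4T1, 518.9 and 515.0 CPM in 67NR and 475.6 and 497.7 CPM in control medium, and fell by 19.0% in 4T1 against control medium (adjusted p = 0.00156).

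The transgelins, small relatives of the calponins, did not pass in 4T1 against control medium. Tagln2, the form found in many cell types, had 299.8 and 299.7 CPM in 4T1, 238.9 and 226.5 CPM in 67NR and 300.8 and 289.0 CPM in control medium. The 4T1 and control libraries coincided and the 67NR libraries lay below both. Tagln2 fell in 67NR against control medium (log2 fold change -0.34, SE 0.06, adjusted p = 0.00125) and was higher in 4T1 than in 67NR medium (0.37, adjusted p = 0.000362). Tagln, known as SM22 and one of the most abundant transcripts of smooth muscle, was counted at 19 and 22 reads in 4T1, 29 and 34 in 67NR and 36 and 29 in control medium, or 1.20 to 2.16 CPM, and passed no comparison. Its exons overlap annotated exons of the opposite strand over 67.9% of their length, those of Gm48529 and Pcsk7, which had 12 to 32 and 298 to 502 counts. Whether the counting used strand is not given in the sources at hand, so the Tagln level is uncertain.

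The tropomyosins, coiled coils that run along actin filaments, diverged from each other. Tpm1 (chromosome 9, 67022590 to 67049406, minus strand) had 952.1 and 878.0 CPM in 4T1, 1605 and 1630 CPM in 67NR and 1900 and 1873 CPM in control medium. Each medium formed its own level, with 4T1 far below the others. Tpm1 fell by 51.5% in 4T1 against control medium (log2 fold change -1.04, SE 0.07, adjusted p = 5.13e-08) and fell by 14.3% in 67NR against control medium (-0.22, SE 0.06, adjusted p = 0.0218). Tpm4, the short tropomyosin of non-muscle cells, had 976.1 and 974.9 CPM in 4T1, 776.0 and 799.0 CPM in 67NR and 1022 and 1105 CPM in control medium. Here the 67NR libraries were the lowest. Tpm4 fell in 67NR medium (log2 fold change -0.43, SE 0.06, adjusted p = 0.000284), and in 4T1 medium the difference from control was -0.12 (SE 0.06, adjusted p = 0.149). Tpm2 fell in 4T1 against control medium (-0.31, adjusted p = 0.0015) and Tpm3 fell in both media against control (-0.20 in 4T1, adjusted p = 0.0191; -0.24 in 67NR, adjusted p = 0.00886). The smaller calls depended on single libraries. For Tpm1 in 67NR against control medium, leaving out any 1 of the 67NR or control libraries gave adjusted p between 0.0841 and 0.187. Tpm3 lost its 4T1 call without any 1 of the 67NR or control libraries (adjusted p between 0.0527 and 0.122) and its 67NR call without 67NR replicate 1 or 2 or control replicate 2 (0.0841 to 0.1).

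The balance of the major tropomyosins differed between the media. The ratio of Tpm1 to Tpm4 counts was 0.975 and 0.901 in 4T1, 2.07 and 2.04 in 67NR and 1.86 and 1.69 in control medium. In 4T1 medium Tpm4 was counted more often than Tpm1, and in the other media the reverse held. Exon length enters such counts, with 6485 bases in Tpm1 and 2203 in Tpm4. Per kb of exon, Tpm4 lay above Tpm1 in every medium. The means were 442.8 and 141.1 CPM per kb in 4T1, 357.5 and 249.5 in 67NR and 482.5 and 291.0 in control medium. A further 5 pairs of members were set side by side as ratios of counts, chosen after their values were seen. With 2 libraries against 2 the smallest exact p is 0.333, so none was tested. Cnn2 over Cnn3 was 0.943 and 0.902 in 4T1, 1.24 and 1.26 in 67NR and 1.46 and 1.48 in control medium. Actn1 over Actn4 was 1.06 and 1.11 in 4T1, 1.16 and 1.15 in 67NR and 1.30 and 1.34 in control medium. Both ratios were lowest in 4T1 and highest in control medium. Myl9 over Myl12a was 0.215 and 0.231 in 4T1, 0.263 and 0.250 in 67NR and 0.158 and 0.139 in control medium, lowest in the control libraries. Zyx over Vcl was 4.11 and 3.45 in 4T1, 1.65 and 1.70 in 67NR and 2.70 and 3.11 in control medium. Myh9 over Myh10 was 4.32 and 4.05 in 4T1, 4.58 and 4.50 in 67NR and 4.81 and 4.97 in control medium, likewise lowest in 4T1 and highest in control medium. Acta2 over Actb, a pair with a gene outside the list, was 1.11 and 1.04 in 4T1, 1.39 and 1.29 in 67NR and 1.25 and 1.29 in control medium.

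**Figure D3:**
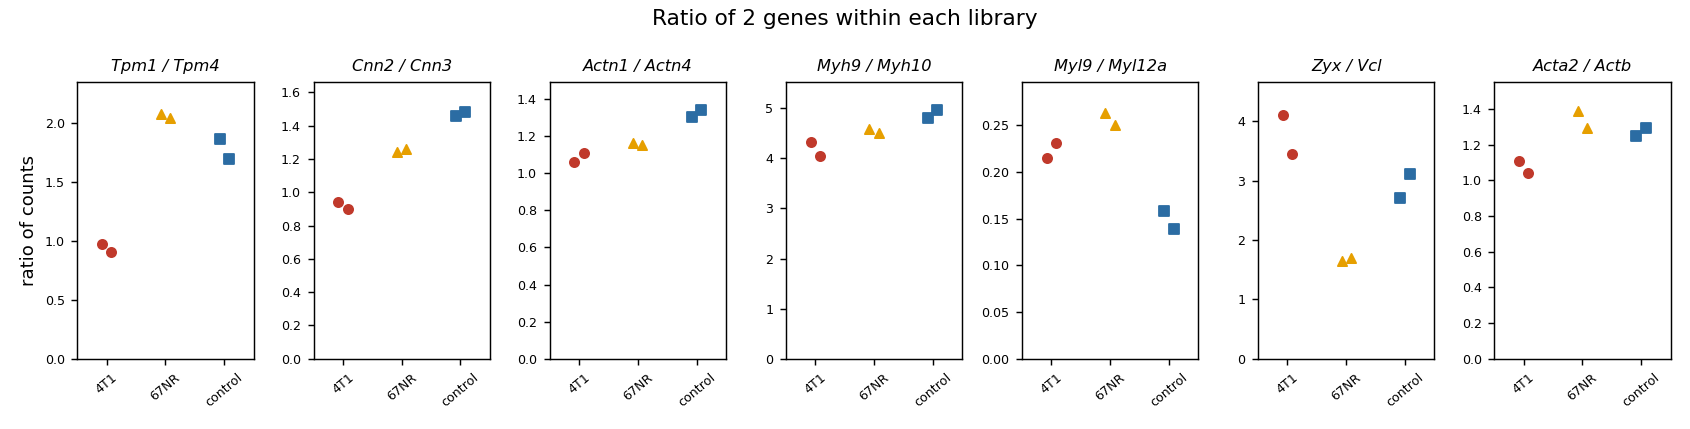
Ratio of the counts of 2 genes within each library, 1 panel per pair and 1 point per library, each vertical axis starting at 0. Tpm1 over Tpm4 lies at 0.975 and 0.901 in 4T1 medium and above 1.6 in the other 4 libraries, and Zyx over Vcl is lowest in 67NR medium.

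Among the 8 myosin genes, 6 fell in 4T1 against control medium (75.0%, against 19.2% of all genes). In 67NR against control medium 3 rose (37.5%, against 13% of all genes) and 1 fell (12.5%, against 14.6%). Mylk (chromosome 16, 34745210 to 35002420, plus strand), which encodes the kinase that activates the motor, had 23.3 and 24.0 CPM in 4T1, 50.4 and 56.2 CPM in 67NR and 30.4 and 29.4 CPM in control medium. No library of one medium overlapped another, with 67NR at the top. Mylk fell by 20.9% in 4T1 medium (log2 fold change -0.34, SE 0.09, adjusted p = 0.00945) and rose by 77.8% in 67NR medium (0.83, SE 0.08, adjusted p = 9.05e-06), both against control, and 4T1 lay 1.17 below 67NR medium on the log2 scale (-1.17, SE 0.08, adjusted p = 1.85e-07). The 4T1 call against control was lost without control replicate 1 (-0.33, adjusted p = 0.0686). Myh11 (chromosome 16, 14194535 to 14291372, minus strand), the heavy chain of smooth muscle myosin, followed the same order at a trace level. It had 8 and 6 counts in 4T1, 91 and 80 in 67NR and 22 and 30 in control medium, or 0.541 and 0.327, 4.22 and 3.89, and 1.14 and 2.23 CPM in that order of media. The log2 fold change was -1.91 in 4T1 against control medium (SE 0.46, adjusted p = 0.00498), 1.33 in 67NR against control medium (SE 0.29, adjusted p = 0.0046) and -3.24 in 4T1 against 67NR medium (SE 0.38, adjusted p = 1.47e-05). The rise in 67NR medium was lost without control replicate 1, the lower of the control libraries (0.86, adjusted p = 0.0841).

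The nonmuscle heavy chains were counted far above Myh11. Myh9, the heavy chain of nonmuscle myosin IIA, had 1516 and 1699 CPM in 4T1, 2014 and 2135 CPM in 67NR and 2057 and 2113 CPM in control medium, and fell in 4T1 against control medium (log2 fold change -0.38, SE 0.07, adjusted p = 0.00104). The 67NR and control libraries overlapped, with a log2 difference of -0.01 (SE 0.07, adjusted p = 0.955). Myh10, the heavy chain of myosin IIB, had 350.8 and 419.6 CPM in 4T1, 439.5 and 474.4 CPM in 67NR and 427.4 and 424.8 CPM in control medium. Its 4T1 libraries differed from each other by more than the other pairs did, and it passed in 4T1 against 67NR medium (-0.25, adjusted p = 0.0264) but not in 4T1 against control medium (-0.14, adjusted p = 0.183). Without 4T1 replicate 2 the difference from control was -0.29 (adjusted p = 0.00251), and without 4T1 replicate 1 or either 67NR replicate the call against 67NR medium was lost (adjusted p between 0.0502 and 0.214).

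Of the light chains, Myl9, the regulatory chain most tied to smooth muscle, rose in 67NR medium. It had 48.5 and 47.5 CPM in 4T1, 64.5 and 62.7 CPM in 67NR and 47.4 and 47.8 CPM in control medium. The 4T1 and control libraries were level, and the log2 fold change was 0.42 in 67NR against control medium (SE 0.07, adjusted p = 0.000698) and 0.01 in 4T1 against control medium (adjusted p = 0.919). Myl12a, the regulatory chain of nonmuscle myosin, had 225.4 and 205.7 CPM in 4T1, 245.6 and 251.1 CPM in 67NR and 300.8 and 344.8 CPM in control medium. It fell in both tumour media against control, by 0.58 on the log2 scale in 4T1 (-0.58, adjusted p = 5.47e-05) and 0.38 in 67NR (-0.38, adjusted p = 0.00254; lost without control replicate 2, 0.0532). Its neighbour on chromosome 17, Myl12b, was counted at 3.72 to 6.02 CPM and fell in 4T1 against control medium (-0.56, adjusted p = 0.0312), a call lost without 4T1 replicate 1 or either control replicate (0.0934 to 0.106). Myl6, the essential light chain, had 223.9 and 197.9 CPM in 4T1, 284.6 and 297.3 CPM in 67NR and 300.4 and 310.1 CPM in control medium and fell in 4T1 against control medium (-0.53, SE 0.07, adjusted p = 6.14e-05).

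**Figure D4:**
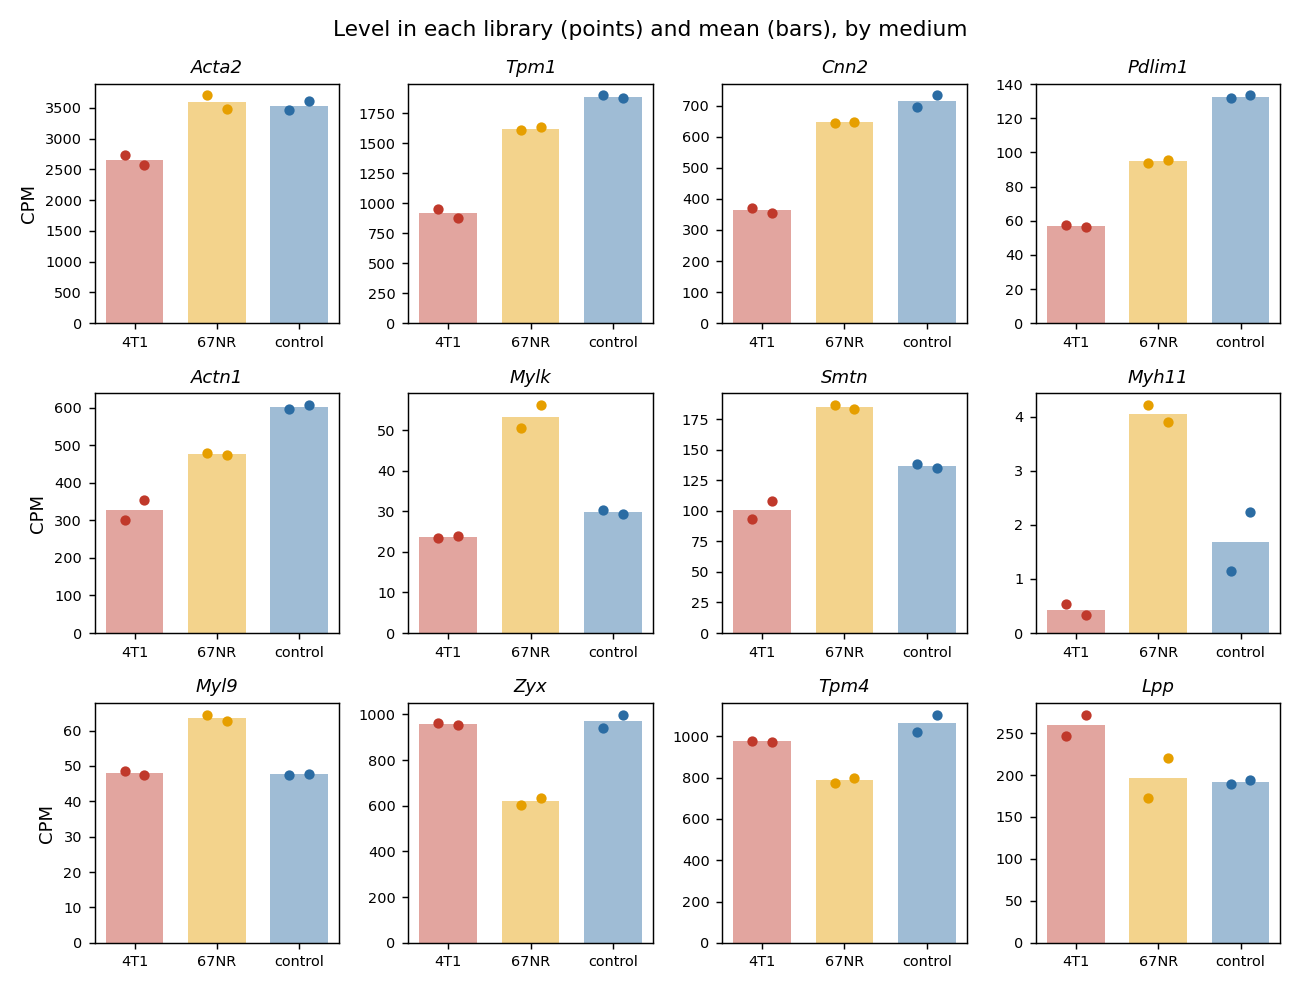
CPM of 12 genes in each library (points) with the mean of the 2 libraries (bars), by medium, each vertical axis starting at 0. Acta2, Tpm1, Cnn2, Pdlim1 and Actn1 are lowest in 4T1 medium, Mylk, Smtn, Myh11 and Myl9 are highest in 67NR medium, Zyx and Tpm4 are lowest in 67NR medium, and Lpp is highest in 4T1 medium.

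Of the 3 thin filament regulators and desmin, Smtn and Lmod1 were lower in 4T1 than in 67NR medium, and Cald1 and Des did not pass. Smtn, which encodes the smooth muscle protein smoothelin, had 93.5 and 108.0 CPM in 4T1, 186.6 and 183.5 CPM in 67NR and 138.4 and 134.6 CPM in control medium. The media did not overlap, and control medium lay between the tumour media. Smtn fell in 4T1 (log2 fold change -0.44, SE 0.07, adjusted p = 0.000497) and rose in 67NR medium (0.44, SE 0.07, adjusted p = 0.000654), both against control. Lmod1, a leiomodin that nucleates actin filaments in smooth muscle, had 1.82 and 1.74 CPM in 4T1, 3.52 and 3.60 CPM in 67NR and 2.39 and 2.16 CPM in control medium and rose in 67NR against control medium (0.64, SE 0.21, adjusted p = 0.0431). That call was lost without any 1 of the 67NR or control libraries (adjusted p between 0.126 and 0.173). Cald1, which encodes caldesmon, had 1456 and 1542 CPM in 4T1, 1434 and 1454 CPM in 67NR and 1654 and 1767 CPM in control medium. Both 4T1 libraries lay above both 67NR libraries, a small difference that did not pass (0.05, adjusted p = 0.543). Cald1 fell in both tumour media against control (-0.19 in 4T1, adjusted p = 0.0347, and -0.24 in 67NR, adjusted p = 0.0141). The 4T1 call of Cald1 was lost without 4T1 replicate 1, either 67NR replicate or control replicate 2 (adjusted p between 0.0534 and 0.218), and its 67NR call without either 67NR replicate or control replicate 2 (0.104 to 0.143). Des, the intermediate filament protein desmin, stayed between 0.892 and 1.56 CPM and passed no comparison. Its control libraries overlapped those of both tumour media, and both 4T1 libraries lay below both 67NR libraries.

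All 4 crosslinkers were called lower in 4T1 than in 67NR medium (100%, against 19.9% of all genes). In 4T1 against control medium 3 of 4 fell (75.0%, against 19.2% of all genes). Actn1, an alpha-actinin of stress fibres, had 300.6 and 354.9 CPM in 4T1, 480.8 and 474.6 CPM in 67NR and 596.3 and 607.8 CPM in control medium. Its levels ran without overlap from 4T1 through 67NR to control medium. Actn1 fell by 45.5% in 4T1 (log2 fold change -0.88, SE 0.08, adjusted p = 1.35e-06) and fell by 20.7% in 67NR medium (-0.33, SE 0.08, adjusted p = 0.00554; 0.0503 to 0.0607 without either 67NR replicate or control replicate 2), both against control. Actn4, its paralog, had 284.5 and 320.2 CPM in 4T1, 415.1 and 412.5 CPM in 67NR and 459.1 and 452.5 CPM in control medium and fell in 4T1 against control medium (-0.59, SE 0.07, adjusted p = 1.84e-05). Flna, the main filamin of these cells, had 2095 and 2560 CPM in 4T1, 2659 and 2836 CPM in 67NR and 3011 and 3086 CPM in control medium and fell in 4T1 against control medium (-0.39, SE 0.09, adjusted p = 0.00299). Flnc, the filamin best known from striated muscle, had 555.4 and 616.6 CPM in 4T1, 635.0 and 704.5 CPM in 67NR and 576.1 and 572.8 CPM in control medium. The 4T1 and control libraries of Flnc overlapped, and its rise in 67NR against control medium (0.22, adjusted p = 0.0391) was lost without any 1 of the 67NR or control libraries (0.0614 to 0.367). The calls against 67NR medium of Flna (-0.24, adjusted p = 0.0382) and Flnc (-0.19, adjusted p = 0.0487) were lost under library totals alone, at 0.0649 and 0.102, and without 4T1 replicate 1, either 67NR replicate or control replicate 2, with Flnc also lost without control replicate 1 (0.0533 to 0.241 for Flna, 0.0531 to 0.407 for Flnc).

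Of the 9 focal adhesion and LIM domain genes, 5 fell and 1 rose in 4T1 against control medium (55.6% and 11.1%, against 19.2% and 19.9% of all genes). Pdlim1 (chromosome 19, 40221173 to 40271842, minus strand), a PDZ and LIM domain protein that binds alpha-actinin, had 57.3 and 56.5 CPM in 4T1, 94.0 and 95.7 CPM in 67NR and 131.7 and 133.6 CPM in control medium. The levels stepped up from 4T1 to 67NR to control medium with little spread in each. Pdlim1 fell by 57.1% in 4T1 (log2 fold change -1.22, SE 0.07, adjusted p = 1.22e-08) and fell by 28.5% in 67NR medium (-0.48, SE 0.06, adjusted p = 9.17e-05), both against control. Its relatives Pdlim5, at 355.0 to 413.7 CPM, and Pdlim7, at 82.9 to 98.4 CPM, passed no comparison. Vcl and Tln1, the vinculin and talin that bear load at adhesions, fell in 4T1 against control medium by 0.39 (-0.39, SE 0.08, adjusted p = 0.00178) and 0.56 (-0.56, SE 0.09, adjusted p = 0.000392) on the log2 scale. In 67NR against control medium their log2 differences were 0.14 (adjusted p = 0.207) and -0.07 (adjusted p = 0.594). Csrp1, a cysteine-rich LIM protein, fell in 4T1 against control medium (-0.43, adjusted p = 0.000264). Csrp2, the form known from vascular smooth muscle, had 176.4 and 153.4 CPM in 4T1, 255.9 and 250.1 CPM in 67NR and 199.1 and 193.5 CPM in control medium. Csrp2 lay highest in 67NR medium (0.37 against control, SE 0.07, adjusted p = 0.0022), and its fall in 4T1 against control medium (-0.25, SE 0.07, adjusted p = 0.0152) was lost without either control replicate (0.0568 and 0.0953).

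Zyx and Lpp, members of one family of LIM proteins, were higher in 4T1 than in 67NR medium. Zyx (chromosome 6, 42349630 to 42360213, plus strand) encodes zyxin, which moves to stretched stress fibres, and had 962.9 and 952.9 CPM in 4T1, 604.6 and 635.4 CPM in 67NR and 942.3 and 998.3 CPM in control medium. The 4T1 libraries lay within the control range and the 67NR libraries far below. Zyx fell by 36.1% in 67NR against control medium (log2 fold change -0.65, SE 0.06, adjusted p = 8.73e-06), with -0.02 in 4T1 against control medium (SE 0.06, adjusted p = 0.852) and 0.63 in 4T1 against 67NR medium (SE 0.06, adjusted p = 4.29e-06). Lpp (chromosome 16, 24393507 to 24992578, plus strand), the lipoma preferred partner, had 246.2 and 271.9 CPM in 4T1, 172.5 and 220.2 CPM in 67NR and 189.1 and 193.5 CPM in control medium. It was the 1 member to rise in 4T1 against control medium (0.44, SE 0.10, adjusted p = 0.00302). It was also higher in 4T1 than in 67NR medium (0.40, adjusted p = 0.00441), a call lost without 67NR replicate 1, the lowest library (0.23, adjusted p = 0.0884).

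Of Srf, Rock1 and Rock2, none passed in 4T1 against control medium. Srf had 57.0 and 64.4 CPM in 4T1, 66.6 and 62.9 CPM in 67NR and 53.8 and 55.8 CPM in control medium. Control libraries were the lowest, and the rise in 67NR against control medium (log2 fold change 0.24, SE 0.08, adjusted p = 0.0377) was lost without any 1 of the 67NR or control libraries (0.0977 to 0.255); in 4T1 medium the difference from control was 0.15 (adjusted p = 0.157), and it passed without 4T1 replicate 1 (0.22, adjusted p = 0.0291). Rock1 lay between 86.6 and 107.2 CPM and Rock2 between 220.9 and 269.1 CPM, and neither passed a comparison in the main fit. After removal of a length trend, Rock1 passed as lower in 67NR than in control medium (-0.22, adjusted p = 0.0203). It then also passed as higher in 4T1 than in 67NR medium (0.17, adjusted p = 0.0451). Without either 4T1 replicate Rock1 passed as lower in 67NR than in control medium (-0.17 in both fits). Rock2 in 67NR against control medium was near the threshold (-0.19, adjusted p = 0.064). It passed with library totals alone (adjusted p = 0.0418), without the filter on low counts (0.032) and with the replicate number as a block (0.0244). It also passed with the 2 groups fitted alone (0.0131), after removal of a length trend (0.00434) and without either 4T1 replicate. The SRF coactivators had their highest means in 67NR medium. Mrtfa averaged 65.6 ± 10.0 CPM in 4T1, 80.8 ± 2.26 CPM in 67NR and 67.9 ± 3.82 CPM in control medium, and Mrtfb averaged 32.8 ± 6.01 CPM in 4T1, 45.2 ± 1.67 CPM in 67NR and 35.5 ± 1.42 CPM in control medium (SD, n = 2 each). Mrtfb rose in 67NR against control medium (0.35, SE 0.10, adjusted p = 0.0257), and Mrtfa did not pass (0.25, SE 0.09, adjusted p = 0.0605). Both were lower in 4T1 than in 67NR medium (-0.30, adjusted p = 0.02 for Mrtfa; -0.45, adjusted p = 0.00342 for Mrtfb). These coactivator calls also moved with single libraries. The rise of Mrtfb in 67NR medium was lost without any 1 of the 67NR or control libraries (adjusted p between 0.0786 and 0.161), and the 4T1 against 67NR call of Mrtfa without 4T1 replicate 1 or either 67NR replicate (0.0597 to 0.116). Mrtfa passed in 67NR against control medium without the filter on low counts (adjusted p = 0.0184) and with the replicate number as a block (0.0349). It also passed with the 2 groups fitted alone (0.00422), after removal of a length trend (0.0308) and without either 4T1 replicate. Without 4T1 replicate 2 both genes passed as lower in 4T1 than in control medium (-0.22, adjusted p = 0.0427 for Mrtfa; -0.32, adjusted p = 0.0144 for Mrtfb).

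The wider pathway was described by 3 further gene lists, chosen by function. Of 35 tested genes of actin monomer and filament turnover, 20 fell and 2 rose in 4T1 against control medium. These are 57.1% and 5.71%, against 19.2% and 19.9% of all genes. In 67NR against control medium 7 fell and 2 rose (20% and 5.71%, against 14.6% and 13% of all genes). In 4T1 against 67NR medium 17 were lower and 3 higher (48.6% and 8.57%, against 19.9% and 23.5% of all genes). Tmsb4x and Tmsb10, the thymosins that sequester actin monomers, fell in 4T1 against control medium (-1.12 and -0.97), as did the filament-severing gelsolin Gsn (-0.86). Gsn had a mean of 327.4 CPM in 4T1, 748.7 CPM in 67NR and 593.1 CPM in control medium, so that it rose in 67NR against control medium (0.34, adjusted p = 0.00132). The formin gene Diaph1, whose product elongates filaments, rose in 4T1 against control medium (0.59, SE 0.08, adjusted p = 4.72e-05). Cap1, a cyclase-associated protein that recycles actin monomers, fell in 4T1 (-0.60) and rose in 67NR medium (0.52), both against control, and was lower in 4T1 than in 67NR medium (-1.11). Diaph3, another formin gene, fell in both tumour media against control (-0.78 in 4T1, adjusted p = 0.000214; -1.49 in 67NR, adjusted p = 1.82e-06).

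Of 36 tested genes for other focal adhesion and stress fibre proteins, 19 fell and 2 rose in 4T1 against control medium. These are 52.8% and 5.56%, against 19.2% and 19.9% of all genes. In 67NR against control medium 6 fell and 8 rose (16.7% and 22.2%, against 14.6% and 13% of all genes). In 4T1 against 67NR medium 21 were lower and 6 higher (58.3% and 16.7%, against 19.9% and 23.5% of all genes). Pdlim3 and Pdlim2, relatives of Pdlim1, fell in 4T1 against control medium (-1.51, SE 0.07 for Pdlim3; -1.50, SE 0.11 for Pdlim2), and so did the LIM protein gene Fhl1 (-0.96). Pdlim3 also fell in 67NR against control medium (-0.74), whereas Pdlim2 rose there (0.36), a call lost without either 67NR replicate or control replicate 1 (adjusted p between 0.0583 and 0.183). Enah, which encodes a relative of the filament elongation factor VASP, averaged 156.4 CPM in 4T1, 83.1 CPM in 67NR and 78.4 CPM in control medium and rose in 4T1 against control medium (1.00, SE 0.07, adjusted p = 1.61e-07).

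Of 10 further nonmuscle myosins, 4 fell and 1 rose in 4T1 against control medium (40% and 10%, against 19.2% and 19.9% of all genes). In 67NR against control medium 3 fell and 2 rose (30% and 20%, against 14.6% and 13% of all genes). In 4T1 against 67NR medium 3 were lower and 2 higher (30% and 20%, against 19.9% and 23.5% of all genes). Myo18a rose in 4T1 and in 67NR medium (0.70 and 0.33), both against control, and Myo1e fell in both (-0.81 and -0.30), its 67NR call being lost without any 1 of the 67NR or control libraries (adjusted p between 0.0571 and 0.0799).

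Several contractile genes have near-identical copies elsewhere in the genome, and reads could be credited to either. Among members sharing at least 5% of their 50-base words with a copy at another locus, Myl6 was affected most. Its processed pseudogenes Gm5526 and Gm10080 held 59.4 to 63.2% of the summed counts. With the copies added, Myl6 had 562.8 and 487.1 CPM in 4T1, 707.8 and 732.3 CPM in 67NR and 816.6 and 829.2 CPM in control medium. The log2 fold change in 4T1 against control medium was then -0.65 (SE 0.07, adjusted p = 1.52e-05) in place of -0.53. The shares on copies were 44.9 to 47.3% for Tpm3 (copy Tpm3-rs7), 27.4 to 32.3% for Pdlim1 (Gm5864), 15.8 to 17.0% for Tpm4 (Gm7809) and 10.6 to 12.4% for Cnn3 (Gm4815 and Gm17936). No call of a member changed with the copies added. For the cytoplasmic actin Actg1, 6 pseudogenes held 92.6 to 93.7% of the summed counts, and the sum was 2608 and 2713 CPM in 4T1, 3311 and 3242 CPM in 67NR and 3346 and 3415 CPM in control medium. The summed Actg1 fell in 4T1 against control medium (-0.35, SE 0.06, adjusted p = 0.00072), close to the -0.39 of Actg1 by itself.

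**Figure D5:**
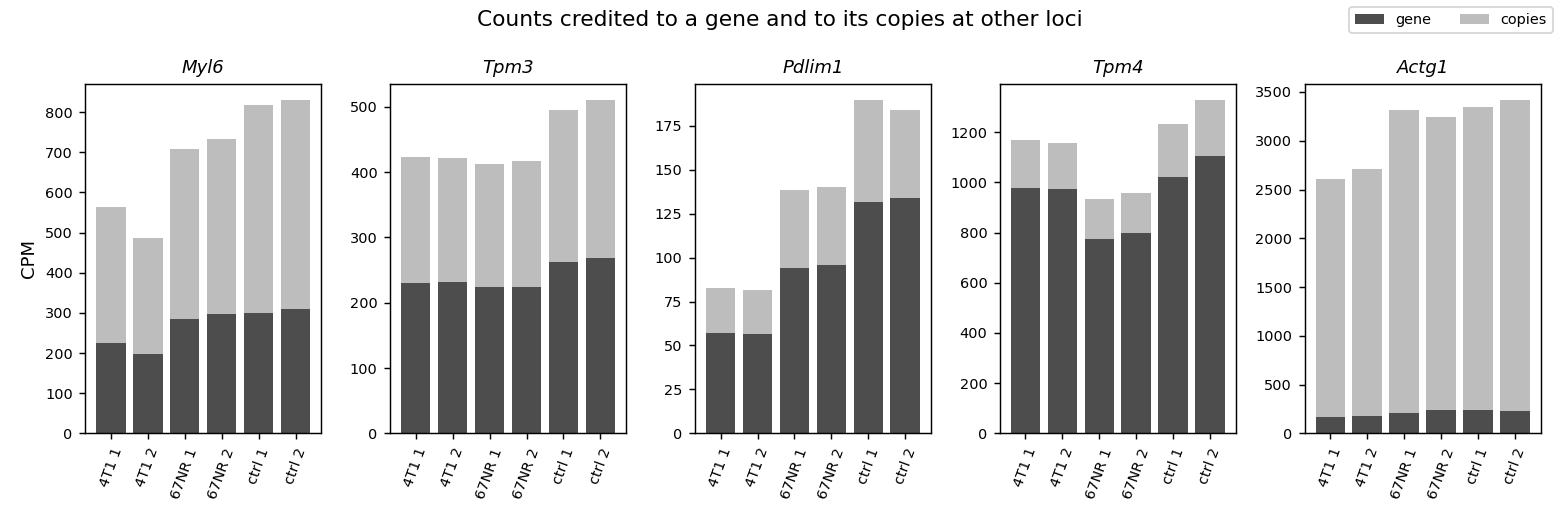
CPM credited to each gene (dark) and to its copies at other loci (light) in each library, for 4 members and Actg1; ctrl is control medium and the number is the replicate. The copies hold 59.4 to 63.2% of the Myl6 sum and 92.6 to 93.7% of the Actg1 sum, and in each panel the share is similar across the 6 libraries.

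Overlapping annotation also touched other members. Exons of the opposite strand covered 25.5% of Vcl (Ap3m1), 17.7% of Cnn3 and 16.3% of Smtn. Myl12a shared 19.9% of its exon length with Myom1 and a model named Myl12b. The Myl12b model used here shared 26.7% of its exon length with another model of the same symbol on the same strand. The level of Myl12b and its call in 4T1 medium are therefore uncertain. Transcript length moved with the 4T1 replicates. Among the 12 members of at least 10 CPM with 8000 or more exon bases, such as Flna, Tln1 and Myh9, 4T1 replicate 2 exceeded replicate 1 in all 12, by a median of 0.16 on the log2 scale, as did 67NR replicate 2 in all 12, by 0.10. In control medium replicate 2 exceeded replicate 1 in 8 of 12. Among the 20 shorter members the medians were -0.02 in 4T1, -0.02 in 67NR and 0.04 in control medium. Over all genes of more than 5 kb, replicate 2 exceeded replicate 1 by a median of 0.098 in 4T1 medium. That median was 0 in 67NR and 0.016 in control medium, so the 67NR difference of the long members was not shared by long genes at large. The median log2 fold change of these genes against control medium was 0.04 in 4T1 and 0.03 in 67NR medium. With the length trend of each library removed, as fitted over all tested genes, 26 members fell in 4T1 against control medium in place of 23. Myh10, Pdlim7 and Rock2 were added. The part of transcript length in the spread between the libraries was not otherwise tested.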

How the data were processed

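Per the labels' protocols, 6 directional libraries were prepared from polyadenylated RNA, each starting with 500 ng of total RNA. The authors deposited whole-number read counts by gene symbol in 2 tables, an unfiltered one, used here, and a filtered one of 14629 genes. Per the submitters' processing notes, Subread, the mm10 assembly and DESeq2 1.32.0 were used. Which aligner was run and whether counting was strand-specific is not given in the sources used here.

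The 39 members and the other gene lists were chosen with earlier results of these data known. All members are named. Of the 3 other pathway lists described, up to 3 genes per direction and comparison were eligible to be named, those with the largest change past the threshold and at least 10 CPM in the higher group, besides Actb, Actg1, Mrtfa and Mrtfb. One more pathway list and 1 marker list are not reported here.

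edgeR 4.0.16 was used with its filterByExpr function (minimum count 10 and total 15) and TMM scaling. CPM use the scaled library totals. One quasi-likelihood fit of all 6 libraries (3 residual and 9.62 prior degrees of freedom, common biological coefficient of variation 5.81%, prior count 0.125) gave the 3 comparisons, with Benjamini-Hochberg adjustment over 15055 genes and 0.05 as the threshold. The standard error is the size of the log2 fold change over the square root of F. The code was tested on simulated counts. Exon lengths, overlaps and shared 50-base words come from GENCODE M21 on GRCm38, the assembly also called mm10, and promoters from RefSeq on GRCm38.p6. R 4.3.3, Python 3.11.15 and matplotlib 3.10.9 were used.

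Alternatives were the replicate number as a block, the Wald test of DESeq2 1.42.0, limma-voom 3.58.1, scaling by DESeq2 size factors or by library totals, the authors' filtered gene set or no filter, fits of the 2 groups compared and each library left out in turn. Sums with gene copies and removal of a length trend were added after the data had been seen.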

Additional observations from a re-analysis of the deposited data

Results flagged for a closer look

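Mylk, Myh11, Smtn and Csrp2 were called lower in 4T1 and higher in 67NR medium, both against control. The share of all tested genes with such opposite calls was not computed. In 4T1 against 67NR medium the log2 fold change was -1.17 for Mylk (SE 0.08, adjusted p = 1.85e-07), -3.24 for Myh11 (SE 0.38, adjusted p = 1.47e-05), -0.87 for Smtn (SE 0.07, adjusted p = 7.58e-07) and -0.62 for Csrp2 (SE 0.07, adjusted p = 1.5e-05). Genes picked for opposite calls against the same control libraries have to be lower in 4T1 than in 67NR medium, so these values give the size of the difference and no independent support for its direction. The opposite calls depended on control libraries in 3 of the 4 genes. Mylk lost its 4T1 call without control replicate 1 (adjusted p = 0.0686), Myh11 lost its 67NR call without control replicate 1 (0.0841), and Csrp2 lost its 4T1 call without control replicate 1 (0.0953) or 2 (0.0568). Both calls of Smtn held in all 16 alternative settings.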

How the results depend on the processing

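Calls of single members held in all 16 alternative settings for 19 of 24 in 4T1 against control medium, 8 of 17 in 67NR against control medium and 21 of 29 in 4T1 against 67NR medium, and no call changed direction. The 67NR comparison depended most on single libraries. With each library left out in turn, the members higher in 67NR than in control medium numbered 4 to 8 and those lower 4 to 14, and over all genes 1043 to 2497 were higher and 1184 to 2840 lower, in place of 1951 and 2199. The extremes of 14 came without either 4T1 library, which leaves the groups compared intact, and that of 4 came without control replicate 2 for the lower and control replicate 1 for the higher members. In 4T1 against control medium, 19 to 26 members were lower and 1 to 2 higher, and over all genes 1891 to 2931 were higher (in place of 2995) and 2109 to 2957 lower. In 4T1 against 67NR medium, 18 to 24 members were lower and 3 to 4 higher. A left-out library leaves a lone sample, assumed to vary like the other groups. In fits of the 2 groups compared, 13 members were lower and 9 higher in 67NR than in control medium. Scaling by library totals gave 22 lower members in both 4T1 comparisons. With the DESeq2 Wald test, 6 members were higher in 67NR than in control medium in place of 8. The cause of these differences was not tested.

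Replicate numbers did not pair the libraries: deviations of same-numbered libraries correlated at 0.069 for 4T1 with 67NR, 0.005 for 4T1 with control and -0.041 for 67NR with control. With the replicate block, 23 members were lower and 1 higher in 4T1 against control medium, 10 lower and 7 higher in 67NR against control medium (Lmod1 lost at 0.0518, Rock2 gained at 0.0244) and 25 lower and 4 higher in 4T1 against 67NR medium. Depth limits the genes near 1 CPM: Des, Tagln, Actg2 and Myh11 rest on 6 to 104 counts per library.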
